A study of Homo sapiens with 6 samples.

Results

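The human microRNA (miRNA) hairpins described here are hsa-mir-339, hsa-mir-330, hsa-mir-126, hsa-mir-7-1, hsa-mir-132, the copies hsa-mir-199a-1 and hsa-mir-199a-2, hsa-mir-331, hsa-mir-33b and hsa-mir-500a, written below without the prefix. They are 10 of the 147 hairpins in the deposited table and stand for 9 miRNAs, all named for the 3′ arm (3p). They were selected on the difference between their deposited variation scores, which was more than 0.3 higher after rescue with DICER lacking its helicase domain than after rescue with full-length DICER, and lie outside the large miRNA families. Both scores of each hairpin are therefore given as a description, with no test.

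The cells were HCT116 DICER-KO, a human colorectal carcinoma line without its own DICER, in all 6 samples. They were transfected with the plasmid pXG-DICER-WT (DICER-WT rescue, 3 samples) or with the plasmid for DICER without the helicase domain (DICER-delHelicase rescue, 3 samples), and RNA was taken after 48 h. Small RNAs cut from a gel were sequenced. The DICER of both groups thus came from a transfected plasmid, and its protein level is not known here. The table has 1 variation score per hairpin and construct and no value per sample, so there is no replicate check of any difference below, and the sequencing depth behind a score is unknown. How the score is computed, and how it draws on 3 samples, is not stated in the header or the labels.

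DICER cuts a precursor miRNA (pre-miRNA) next to its apical loop and releases a duplex of a 5′ arm (5p) and a 3p miRNA. Its cut on the 3′ arm sets the first base of the 3p miRNA. A cut moved by a base shifts the seed, the stretch with which a miRNA pairs to its targets. The helicase domain of DICER lies at the loop side of the bound precursor, and DICER without it can still cut.

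The mature sequences show that the 9 miRNAs are unrelated by seed. Each is written 5′ to 3′ as listed by RefSeq (GRCh38.p14), with the seed, bases 2 to 8, in capitals:
miR-339-3p: uGAGCGCCucgacgacagagccg
miR-330-3p: gCAAAGCAcacggccugcagaga
miR-126-3p: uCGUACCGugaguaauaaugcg
miR-7-1-3p: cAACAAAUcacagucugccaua
miR-132-3p: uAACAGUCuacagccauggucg
miR-199a-3p: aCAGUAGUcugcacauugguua
miR-331-3p: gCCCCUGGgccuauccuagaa
miR-33b-3p: cAGUGCCUcggcagugcagccc
miR-500a-3p: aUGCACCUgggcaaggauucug

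No seed occurred in more than 1 of the 9 miRNAs. Between the hairpins of different miRNAs the longest identical run was 10 nt. The copies mir-199a-1 and mir-199a-2 carry the same 22-nt miR-199a-3p and shared a run of 27 nt. All 9 mature names and all 10 3p positions were found, each at a single place in its deposited hairpin. For 8 of the 10 hairpins the hairpin sequence was also compared with RefSeq, and the deposited sequence was the RefSeq hairpin with 10 more bases on each side. mir-7-1 and mir-331 were matched by their mature sequences.

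Precursors of 7 members are printed to show where the 3p miRNA starts. Each runs from the first base of the 5p miRNA to the last base of the 3p miRNA, and capitals mark the 3p miRNA, so that the change from lower case to capitals is the cut on the 3′ arm:
mir-339: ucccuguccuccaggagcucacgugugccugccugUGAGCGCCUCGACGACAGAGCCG
mir-132: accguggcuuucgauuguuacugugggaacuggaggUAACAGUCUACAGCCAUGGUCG
mir-126: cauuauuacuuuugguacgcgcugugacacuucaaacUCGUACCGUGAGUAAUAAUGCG
mir-199a-1: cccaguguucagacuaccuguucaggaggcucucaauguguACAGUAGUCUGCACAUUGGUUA
mir-199a-2: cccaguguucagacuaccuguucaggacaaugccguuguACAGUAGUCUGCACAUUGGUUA
mir-33b: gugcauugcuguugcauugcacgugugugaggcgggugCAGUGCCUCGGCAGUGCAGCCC
mir-500a: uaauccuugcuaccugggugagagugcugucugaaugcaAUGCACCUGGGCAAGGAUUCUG

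The hairpins lie on 7 chromosomes (GRCh38, GENCODE 29 annotation). mir-339 is at chr7:1022933-1023026 (minus strand), in an intron of C7orf50. mir-126 is at chr9:136670602-136670686 (plus strand), in an intron of EGFL7. mir-33b is at chr17:17813836-17813931 (minus strand), in an intron of SREBF1, which encodes a master regulator of lipid synthesis. mir-500a is at chrX:50008431-50008514 (plus strand), in an intron of CLCN5. mir-7-1 at chr9:83969748-83969857 (minus strand) overlaps an untranslated exon of HNRNPK, and mir-330 at chr19:45638994-45639087 (minus strand) overlaps one of EML2. Such an overlap was called if any annotated transcript had it, so other transcripts may have an intron there. mir-199a-2 at chr1:172144535-172144644 (minus strand) lies in an exon of the non-coding DNM3OS, which runs opposite to DNM3. mir-199a-1 at chr19:10817426-10817496 (minus strand) lies opposite to an intron of DNM2. No other annotated gene overlapped mir-132 at chr17:2049908-2050008 (minus strand) or mir-331 at chr12:95308420-95308513 (plus strand).

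All 10 hairpins scored higher with DICER-delHelicase, as the rule required, beside 72.1% of all hairpins. In the whole table a change (the delHelicase score minus the WT score) above 0.3 was found in 24 hairpins (16.3%), of which these are 10. The median score of the 10 was 0.276 with DICER-WT (range 0.00813 to 0.412) and 0.815 with DICER-delHelicase (range 0.363 to 1.09). For the other 137 hairpins the medians were 0.0687 and 0.133. The median change was 0.4997 in the 10 and 0.0186 in the others. With DICER-WT, 9 of the 10 scored above the median of all hairpins. None of the 10 scored above 0.5 with DICER-WT, beside 9 of all 147 hairpins (6.12%). With DICER-delHelicase 8 of the 10 scored above 0.5, beside 27 of all 147 (18.4%). The rule itself requires delHelicase scores above 0.3. It also leaves little room for high DICER-WT scores, since only 1 of all 147 hairpins had a delHelicase score above 1.

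mir-339 stood apart at the top. It scored 0.304 with DICER-WT against 1.09 with DICER-delHelicase, a change of 0.784, and it was the only hairpin of the table with a delHelicase score above 1. Its change was exceeded in the table by that of let-7e alone.

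The next 7 hairpins followed with changes close to each other. mir-126, whose miRNA is known from endothelial cells, scored 0.248 with DICER-WT and 0.763 with DICER-delHelicase, a change of 0.515. mir-7-1, whose listed miRNA is the strand opposite to the conserved miR-7-5p, scored 0.226 and 0.741, also a change of 0.515. Their changes were equal to 3 decimals although their DICER-WT scores differed.

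mir-500a had the highest DICER-WT score of the 10, 0.412, against 0.924 with DICER-delHelicase, a change of 0.512. mir-330 was nearly level with it at 0.403 and 0.912, a change of 0.508. Both mir-199a copies, known from mesenchymal cells, scored 0.377 and 0.868, a change of 0.491. Since the copies hold the same 3p miRNA and had the same deposited scores, they are 1 measurement, although the medians and counts include both. With 1 value per miRNA the median change was 0.508. mir-132, a miRNA induced by neuronal activity, started lower, at 0.139 with DICER-WT, and reached 0.605, a change of 0.466.

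The smallest changes belonged to the hairpins with the lowest DICER-WT scores. mir-33b, which is made together with the SREBF1 transcript, scored 0.00813 with DICER-WT and 0.363 with DICER-delHelicase, a change of 0.355. Its delHelicase score was 44.6 times its DICER-WT score, against ratios of 2.24 to 4.66 in the other 9 hairpins, and the ratio rests on a DICER-WT score near 0 at unknown depth. mir-331 scored 0.0878 and 0.409, a change of 0.321, the smallest of the 10. Just outside the limit of 0.3 were mir-30b, with a change of 0.286, and mir-374b, with 0.272.

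**Figure D1:**
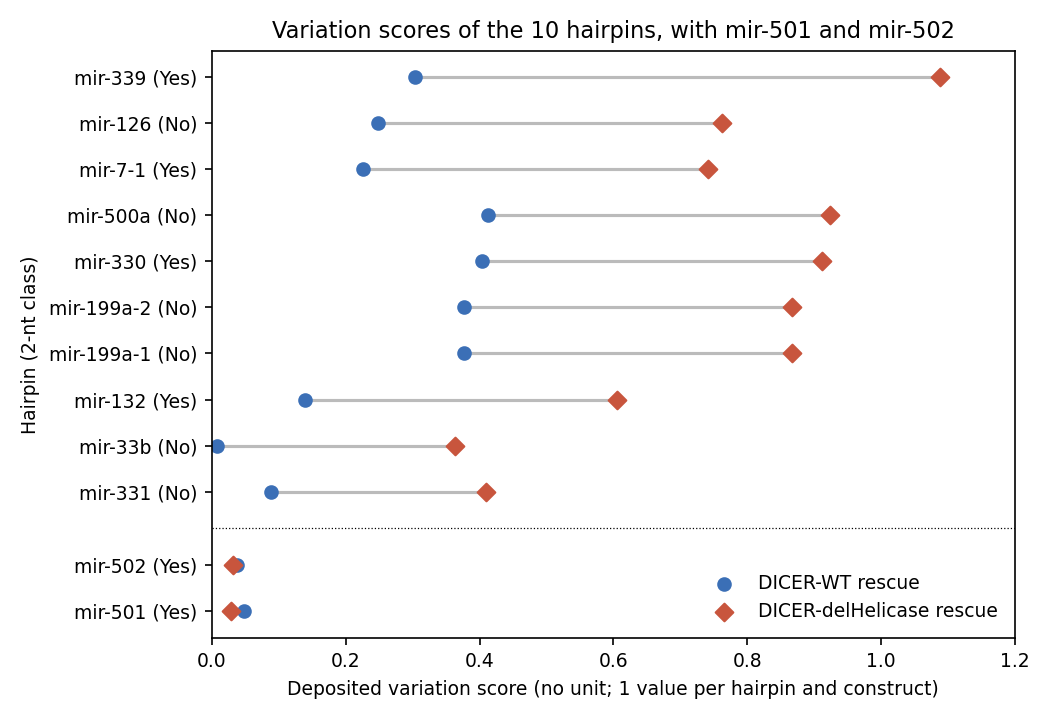
Variation scores (horizontal axis, no unit) of the 10 hairpins and of mir-501 and mir-502 with DICER-WT (circles) and DICER-delHelicase (diamonds), 1 deposited value each, with the 2-nt class in parentheses. The delHelicase score lies to the right of the WT score for each of the 10, from 0.363 to 1.09, while both scores of mir-501 and mir-502 lie below 0.05.

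The other 14 hairpins above the limit were let-7e, mir-139, mir-3158-1, mir-3158-2, mir-30c-1, mir-28, mir-424, mir-31, mir-1307, mir-30e, mir-576, mir-30a, mir-30d and mir-378a. With DICER-WT their median score was 0.156, with DICER-delHelicase it was 0.760, and their median change was 0.490, beside 0.4997 in the 10. Of these 14, 12 scored above the median of all hairpins with DICER-WT and none above 0.5. With DICER-delHelicase 12 of the 14 scored above 0.5. The hairpins whose pair of scores lay nearest to the medians of the 10 were mir-31 (0.337 and 0.790), mir-30c-1 (0.221 and 0.773) and mir-1307 (0.349 and 0.784). All 3 pairs of scores lay within the ranges of the 10.

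**Figure D2:**
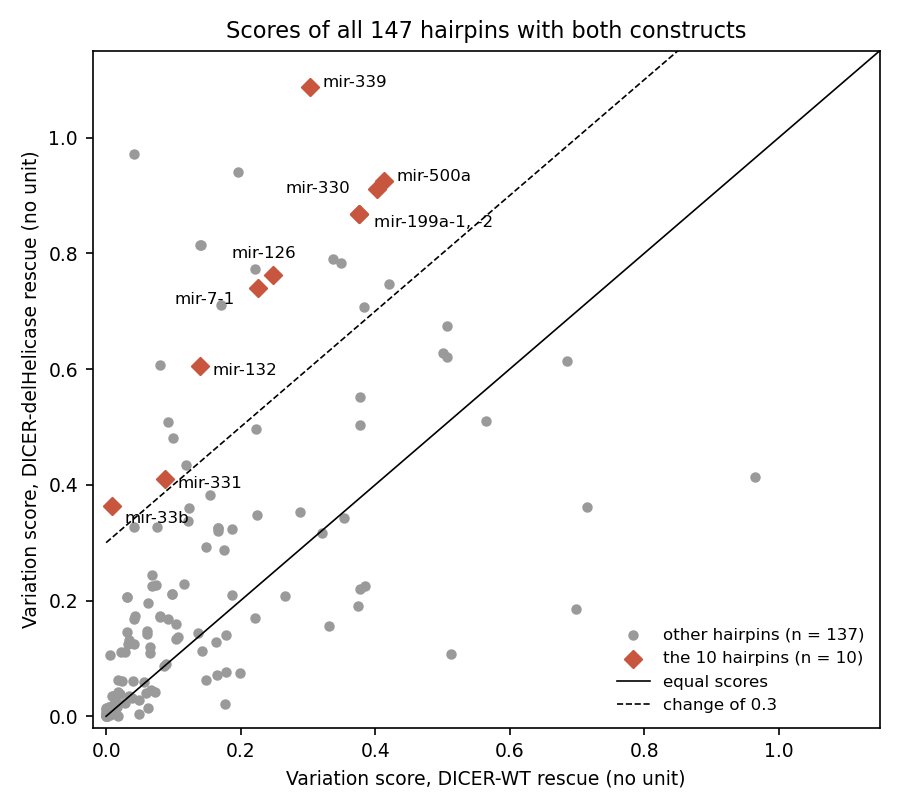
Scores of all 147 hairpins with DICER-WT (horizontal axis) and DICER-delHelicase (vertical axis), both without unit. The 10 hairpins (diamonds) lie above the dashed line of a change of 0.3, as the rule fixed, in a region shared with 14 other hairpins (grey circles).

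The table further gives the offset of the main 5′ end in the DICER-WT libraries and a class headed 2-nt, derived from the same libraries. Neither was used to choose the hairpins. The offset was 0 for all 10 hairpins and for 130 of the other 137. The zero position is not given in the header and was read here as the annotated start of the 3p miRNA.

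The 2-nt class was Yes for mir-339, mir-330, mir-7-1 and mir-132 and No for mir-126, both mir-199a copies, mir-331, mir-33b and mir-500a. That is 4 of 10 Yes (40.0%, exact Clopper-Pearson 95% interval 12.2 to 73.8, which treats hairpins as independent and holds no error between samples). With 1 value per miRNA the share of Yes was 44.4%. Among the other hairpins 69 of 137 were Yes (50.4%). Changes ranged from 0.466 to 0.784 in the Yes hairpins (median 0.512) and from 0.321 to 0.515 in the No hairpins (median 0.491). The ranges overlapped.

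The definition of the class is not given in the header, so it was set beside the predicted pairing of the deposited hairpins (minimum free energy structure, ViennaRNA). The distance used is the number of paired bases in a row between the 3p start and the next unpaired base toward the loop. In each of the 4 Yes hairpins this distance was 2. In the 6 No hairpins it was never 2. It was 0 in mir-126, mir-199a-1 and mir-199a-2, 1 in mir-331, and 3 in mir-33b and mir-500a. Class and distance therefore went together in 10 of 10 hairpins.

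The same pairing of class and distance was seen across the table, with exceptions. The 3p start could be placed in 132 hairpins, 66 of each class. The distance was 2 in 50 of 66 Yes hairpins (75.8%) and in 5 of 66 No hairpins (7.58%). Class and distance went together in 101 of the 122 placed hairpins outside the 10 (82.8%). Copies with the same 3p miRNA and an offset of 0 could differ in class. mir-3158-1 was Yes (distance 2) and mir-3158-2 No (1), and mir-103a-1 was Yes (2) and mir-103a-2 No (3). mir-101-1 was Yes and mir-101-2 No, both at a distance of 2. The class may thus itself draw on the structure of each hairpin, so its match with the distance is not an independent check. Another reading of the header, a 2-nt 3′ overhang of the annotated 5p miRNA in the predicted duplex, did not separate the classes. That overhang was found in 31 of 51 Yes hairpins (60.8%) and in 26 of 42 No hairpins (61.9%) for which it could be computed.

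**Figure D3:**
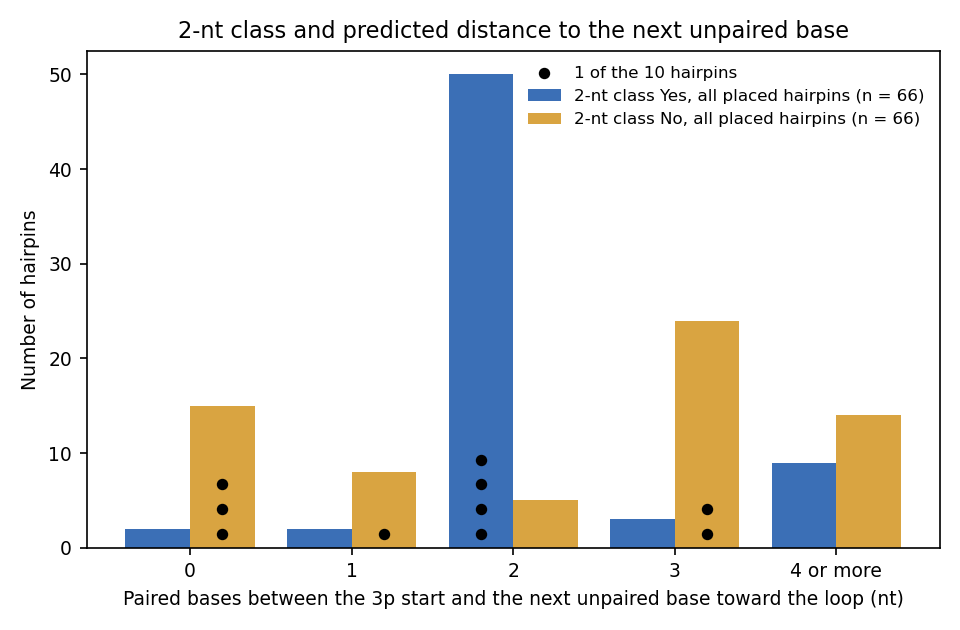
Number of placed hairpins (vertical axis) of the 2-nt class Yes (blue) and No (yellow) by the predicted number of paired bases between the 3p start and the next unpaired base toward the loop (horizontal axis, nt). Black points each stand for 1 of the 10 hairpins: 4 lie in the Yes bar at a distance of 2, and 6 in the No bars at 0, 1 and 3.

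The predicted probabilities of being unpaired show the same bases in more detail. Positions are counted from the 3p start, with 1 for the first base of the 3p miRNA and -1 for the neighbour toward the loop. In mir-339 the base at -3 was unpaired with a probability of 0.947, against 0.0972 at -2. In mir-7-1 these values were 0.971 and 0.107, in mir-330 they were 0.949 and 0.0141, and in mir-132 they were 0.905 and 0.0648. In the printed mir-339 and mir-132 precursors, the last 2 lower-case bases are thus predicted to be paired and the one before them to be open.

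The No hairpins differed among themselves. In mir-126 the start itself was open (0.982 at position 1), as was the base at -2 (0.825). The base at -1 between them was undecided (0.467), and the distance was 1 in the centroid structure. In the mir-199a copies the base at -1 was mostly open (0.980 in mir-199a-1 and 0.813 in mir-199a-2), and position 1 was paired (0.0903 and 0.0835). At -2 the prediction for both was undecided (0.515 and 0.474), and at -3 the values were 0.566 and 0.240. In mir-331 the base at -1 was paired (0.0324) and that at -2 open (0.999). In mir-33b the bases from -1 to -3 were paired and the single base at -4 was open, with a probability of 1.00.

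**Figure D4:**
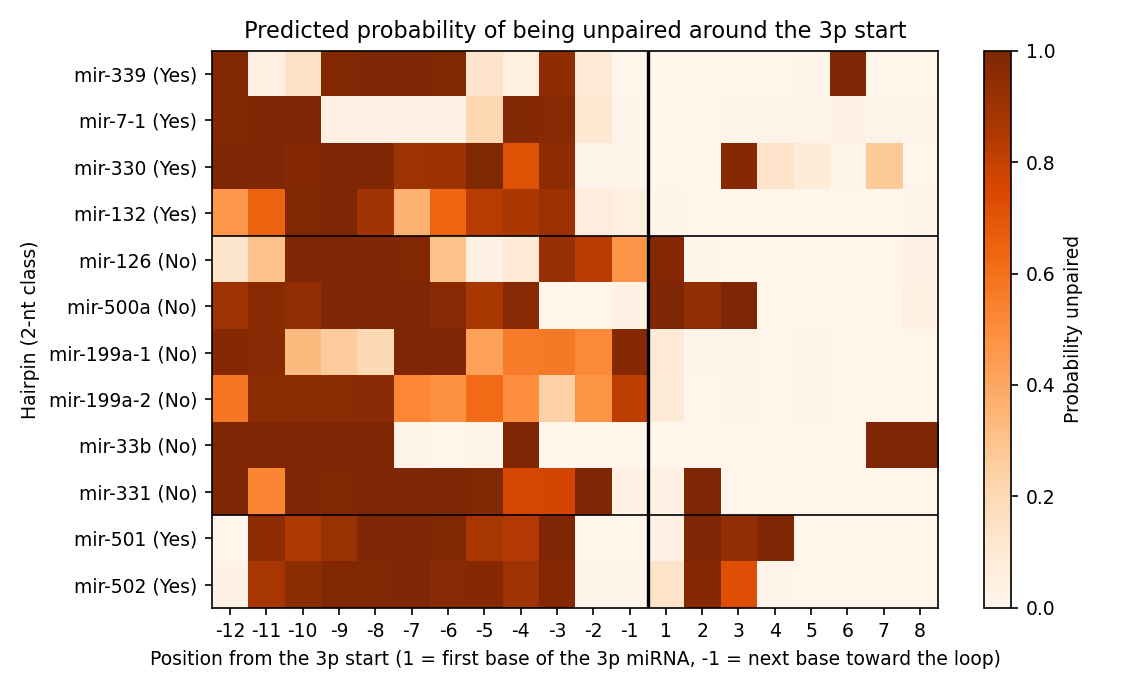
Predicted probability of being unpaired (colour, 0 to 1) by position from the 3p start (horizontal axis) for the 10 hairpins and for mir-501 and mir-502, with the 2-nt class in parentheses. The thick line marks the 3p start. The 4 Yes hairpins at the top are dark at -3 and pale at -2 and -1, and the row of mir-500a resembles those of mir-501 and mir-502 moved by 1 position.

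The mir-500a hairpin could be set beside close relatives. Of 13 relatives by family or genomic cluster (mir-7-2, mir-7-3, mir-212, mir-199b, mir-214, mir-33a, mir-500b, mir-501, mir-502, mir-532, mir-188, mir-362 and mir-660), only mir-501 and mir-502 are in the table. Both lie in CLCN5 introns near mir-500a, at chrX:50009722-50009805 and chrX:50014598-50014683 (plus strand). Their scores did not resemble those of mir-500a. mir-501 scored 0.0483 with DICER-WT and 0.0288 with DICER-delHelicase, a change of -0.0195. mir-502 scored 0.0380 and 0.0313, a change of -0.00679. Both are of the 2-nt class Yes, and mir-500a is No.

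Their 3p miRNAs are nearly the same sequence as miR-500a-3p with the start moved by 1 nt. Their mature forms (seed in capitals) and the mir-502 precursor (3p miRNA in capitals) show this beside those of mir-500a above:
miR-501-3p: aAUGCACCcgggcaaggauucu
miR-502-3p: aAUGCACCugggcaaggauuca
mir-502: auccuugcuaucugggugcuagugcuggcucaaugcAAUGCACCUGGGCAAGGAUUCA

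Aligned on the mir-500a hairpin, the annotated miR-500a-3p starts 1 nt further from the loop than miR-501-3p and miR-502-3p do. Over 22 aligned bases miR-501-3p differed from the mir-500a hairpin by C9U and miR-502-3p by A22U (the relative's base first, positions from 1 at its 5′ end). The distance to the next unpaired base was 2 in mir-501 and mir-502 and 3 in mir-500a, and it was 2 in mir-500a when counted from the start that its relatives use. A miR-500a read that began 1 nt nearer to the loop would share its first 21 bases with miR-502-3p. How reads common to these hairpins were assigned is not stated in the header or the labels, and their part in the scores was not tested.

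The dimensions of the 10 hairpins were close to those of the others. The annotated precursors were 56 to 64 nt long (median 60.5, against 60.0 in 97 other hairpins with both arms listed). Between the arms lay 12 to 18 nt, with a median of 16 nt in both sets and a range of 8 to 36 nt in the others. The shortest such segment was that of mir-339, and the longest were those of mir-7-1, mir-199a-1 and mir-33b.

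The predicted apical loop, closed by the innermost pair, ranged from 3 nt in mir-199a-1 to 13 nt in mir-330. Its median was 4.5 nt in the 10 and 6 nt in the 122 others, whose quartiles were 4 and 9 nt. Counted from the innermost run of 3 stacked pairs, the medians were 9.5 and 10.0 nt. At least 1 unpaired base within 3 nt on either side of the 3p start was predicted in 9 of 10 hairpins (90.0%, the exception being mir-33b) and in 89 of 122 others (73.0%). Among the other hairpins with a change above 0.3 it was predicted in 10 of 12 (83.3%). The whole 3p miRNA held 1 (mir-7-1) to 6 (mir-339) unpaired bases, with medians of 4 in the 10 and 3 in the others.

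GC content of the deposited hairpin spanned 40.0% in mir-7-1 to 73.7% in mir-339, with a median of 56.7% beside 50.9% in the others. The folding energy per nucleotide had medians of -0.444 and -0.432 kcal/mol, from -0.603 in mir-33b to -0.345 in mir-199a-2. The first base of the 3p miRNA was U in mir-339, mir-126 and mir-132, A in mir-500a and both mir-199a copies, C in mir-7-1 and mir-33b, and G in mir-330 and mir-331. A first G occurred in 2 of these 10 hairpins and in 6 of 122 others. In each of these features the values of the 10 lay within the range of the other hairpins, and no difference between the sets was tested.

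**Figure D5:**
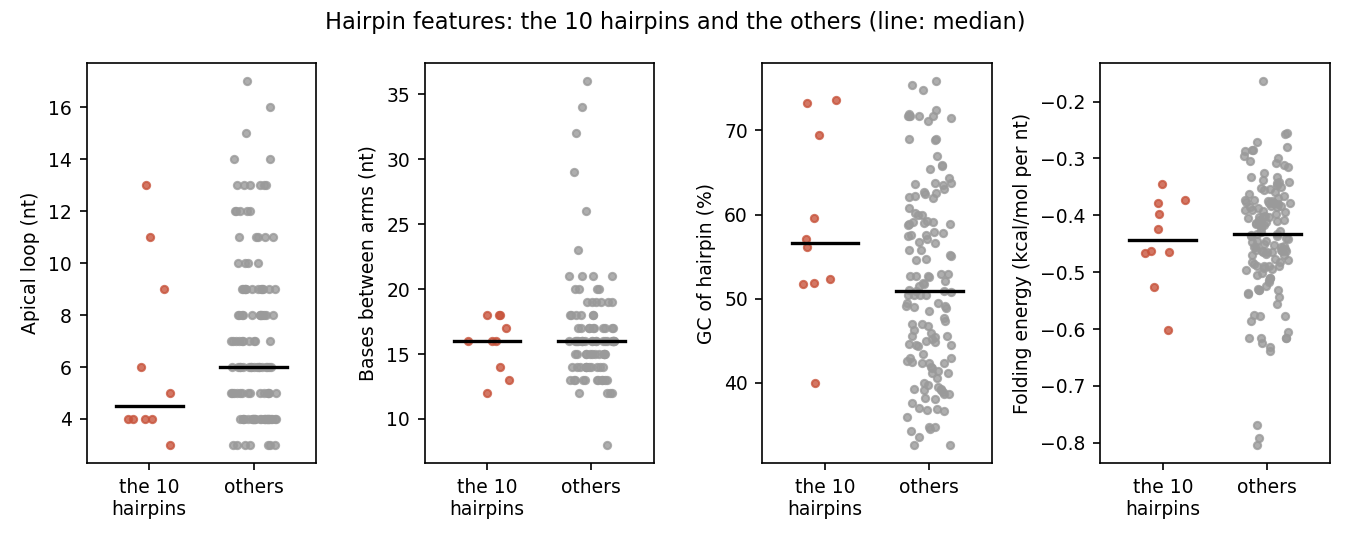
Predicted apical loop, bases between the annotated arms, GC content and folding energy per nucleotide (vertical axes) of the 10 hairpins and of the other hairpins, 1 point per hairpin, with the median as a line. The 10 hairpins lie within the spread of the others in every panel, with median loops of 4.5 and 6 nt and median GC contents of 56.7% and 50.9%.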

How the data were processed

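Small RNA libraries of 3 DICER-WT and 3 DICER-delHelicase rescue samples were summarised by the authors in 1 table of 294 lines (147 hairpins, 127 miRNAs, 2 constructs). The deposited variation score has no stated formula or normalization, and cutadapt, Bowtie2, bedtools and GRCh38 are named, without settings, per the submitters' processing notes. Per the file headers, the offset and the 2-nt class come from DICER-WT libraries. The members and lists were chosen with earlier results of these data known.

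Changes are delHelicase minus WT scores. Hairpins were folded with ViennaRNA 2.7.2 (default dangles, minimum free energy, and base pair probabilities), and the structure functions were tested on simulated structures. Mature names matched RefSeq (GRCh38.p14) for 136 hairpins, and the 3p start was unique in 132. Named were all 10 hairpins, the relatives in the table, the other hairpins above 0.3, 2 hairpins on each side of that limit and the 3 nearest in scores. let-7e was also named for its rank after its value was seen. Without values per sample no test was run, and features were compared by counts and medians. Alternatives were other thresholds, summaries, folds and windows. The class and distance comparison was chosen after the table was seen.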

Additional observations from a re-analysis of the deposited data

How the results depend on the processing

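Of 36 alternative values for 13 results, 27 fell inside the main value's 95% interval (for the count above the limit, within 1.5 times). The intervals over the 10 hairpins are wide, treat hairpins as independent and count both mir-199a copies. For the changes and ratios they rest on values that the rule selected, so a value inside them says little. The interval of the median apical loop of the 10 (4.5 nt) ran from 4 to 11 nt, so that 9.5 nt counted as inside. None changed sign, but most results are counts, percents or sizes that cannot, and the rule fixed the changes of the 10 as positive. The median change of all hairpins, 0.0261, was 0.103 as a mean. The share of hairpins with an unpaired base near the 3p start followed the window by construction: with 2 nt it was 50.0% in the 10 and 34.4% in the others, and with 5 nt 100% and 94.3%. Median GC content was 51.3% and 47.5% over precursors alone. The median apical loop of the others was 10.0 nt when closed by 3 stacked pairs and 8 nt in the centroid structure, beside 9.5 and 7 nt in the 10, so that the 10 kept the lower median. Class and distance went together in 10 of 10 hairpins without dangling ends, in the centroid structure and in the precursor folded alone (alternatives chosen after seeing the data). Moving the start by the offset could not alter this count, since all 10 offsets are 0. No paired analysis was possible because each construct has a single score per hairpin without replicates, and replicates could not be left out for the same reason. The unknown depth limits the reading of low scores, such as that of mir-33b with DICER-WT.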

Other observations

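Over the 132 hairpins with a placed 3p start, changes above 0.3 were spread over the predicted distances to the next unpaired base. They were found in 4 of 17 hairpins at a distance of 0, in 2 of 10 at 1, in 12 of 55 at 2, in 3 of 27 at 3 and in 1 of 23 at 4 or more. The 10 hairpins contributed 3, 1, 4, 2 and 0 of these. The 3 at a distance of 0 include both mir-199a copies, which are 1 measurement. mir-3158-1 and mir-3158-2, with the same miRNA and the same delHelicase score, count at 2 and 1. Median changes were 0.0261, 0.0110, 0.0120, 0.0305 and 0.0828 in the same order. At 4 or more the median was thus the highest of the 5 groups while the share above 0.3 was the lowest (4.35%). These are descriptions over hairpins, which are not replicates, and none of the differences was tested.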
